A study of Saccharomyces cerevisiae with 14 samples.

Results

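The 10 min and 14 min arrays of the yeast experiment BY008 were set against its 7 min array, to describe how mRNA levels moved in the minutes after the early response to glutamine. These are 3 of the 14 arrays of the series, chosen by their labelled experiment and time, and the comparison was read across 5449 S. cerevisiae genes. All 14 arrays came from the wild-type strain YSBN6, a budding yeast, grown in batch in a fermentor, with 20 g/L glucose, 200 mg/L proline as nitrogen source, a temperature of 30 °C and a pH of 5. Glutamine was pulsed in at 400 mg/L at time 0, which all arrays after the -10 min steady state carry, and the labels name no added allele. Experiments BY003, BY008 and BY012 each gave 1 array at -10, 7 and 24 min, which the series design calls biological triplicates. The times 3, 10, 14, 56 and 120 min exist for BY008 alone, so a difference between 7, 10 and 14 min has no replicate check and carries no p value.

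Yeast senses the quality of its nitrogen source. On proline, a poor source, GATA activators keep genes for scavenging permeases and for the breakdown of proline, allantoin and urea switched on, and a preferred source such as glutamine shuts them down, a process called nitrogen catabolite repression. Good nitrogen also activates TORC1 and protein kinase A, which favour ribosome production and hold down stress, autophagy and carbohydrate storage genes, while external amino acids are read separately by the SPS sensor of the plasma membrane, which switches on a set of amino acid permease genes.

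A level below is the log2 of a linear probe-set intensity, and a difference of 1 in log2 is 2-fold. The RNA is from whole cultures, so fewer cells with an mRNA and less of it per cell cannot be told apart. The 7 and 10 min arrays of BY008 differed by at least 2-fold in 64 genes (1.17%), the 14 and 7 min arrays in 445 (8.17%), and the 14 and 10 min arrays in 102. Arrays of the same time set the scale for this: at 7 min, 103 genes (1.89%) differed by as much between BY003 and BY008, 311 (5.71%) between BY012 and BY008 and 100 (1.84%) between BY012 and BY003. The whole step from 7 to 10 min was thus smaller than the difference between separate experiments at 7 min, and the step to 14 min was larger. The 7 min array of BY012 stood furthest from that of BY008. The arrays' median intensities ran from 159 to 279, and precision is limited by how few arrays there are. In BY008 these medians were 201 at 7 min, 183 at 10 min, 170 at 14 min and 178 at 24 min. The 3′ minus 5′ difference of the actin control probe sets, a sign of RNA quality, was 0.94 at 7 min, 0.93 at 10 min, 1.24 at 14 min and 1.01 at 24 min in BY008, and 1.31 to 1.56 on the arrays of BY003 and BY012. Its part in the 14 min differences was not tested.

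At 10 and 14 min the culture's amino acid permease genes AGP1 and TAT2 stood well above 7 min, while genes for nitrogen scavenging, glycogen and trehalose, stress protection and autophagy stood below it. Of all genes, 4669 of 5449 (85.7%) lay on the same side of the 7 min array at both times, 2254 higher (41.4%) and 2415 lower (44.3%), a count that the shared 7 min array by itself raises. At 10 min 8 genes were at least 2-fold higher (0.147%) and 56 at least 2-fold lower (1.03%). At 14 min 81 were higher (1.49%) and 364 lower (6.68%), or 103 and 262 with quantile normalization. At 24 min in BY008 255 were higher (4.68%) and 678 lower (12.4%). At both 10 and 14 min 7 genes were at least 2-fold higher (0.128%) and 54 at least 2-fold lower (0.991%), so 11.5% of these 61 were higher, a share that was 18.0% with array medians subtracted (9 and 41 genes) and 22.2% with quantile normalization (10 and 35 genes). The sizes kept growing: the difference was larger at 14 than at 10 min in 7 of the 7 and in 53 of the 54. The median difference over the 7 was 1.12 at 10 min and 2.03 at 14 min, and over the 54 it was -1.20 and -2.07, against -0.02 at 10 min and close to 0 at 14 min over all genes. The 2-fold line itself separated near neighbours, with REA1 at 1.02 and GLN1 at -1.0003 just inside it and PHO84 at 0.996 and FYV10 at -0.999 just outside, all at 10 min. A level is called above background where it exceeds the 95th percentile of the S. pombe probe sets of its array, which was 6.22, 6.32, 6.28 and 6.50 at 7, 10, 14 and 24 min in BY008. The 7 higher genes and 45 of the 54 lower genes were above background on these 4 arrays. The other 9 are ATG29, CYC7, GAC1, POX1, PTH4, RGI2, YMR206W, YNL092W and YPL113C, of which all but CYC7 and GAC1 were not above it at 10 or 14 min, so their differences are known only as a lower bound. For ATG29, POX1, RGI2 and YPL113C this bound lay under 2-fold at both times. Their place among the 54 thus rests on levels that were not above background. Such bounds are given below as "at least" and set the background percentile in place of the dim level.

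**Figure D1:**
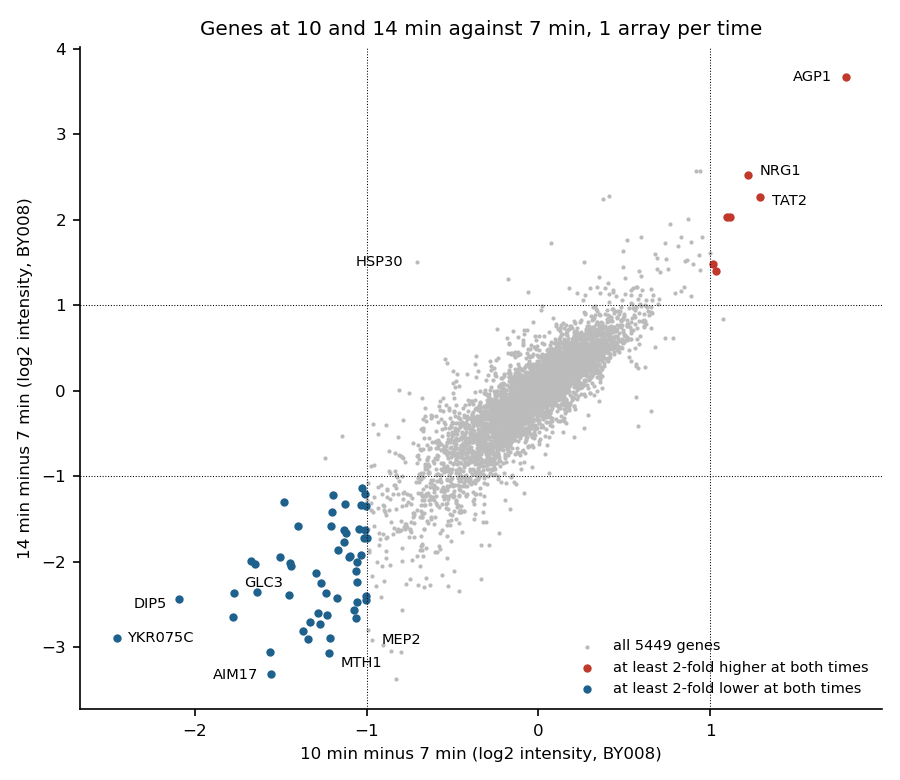
Each point is 1 gene of 5449, with its log2 difference from the 7 min array at 10 min on the x axis and at 14 min on the y axis, all in BY008 and 1 array per time, and dotted lines at 2-fold. The 7 red genes are at least 2-fold higher and the 54 blue genes at least 2-fold lower at both times, AGP1 lies at 1.79 and 3.67, and HSP30 is lower at 10 and higher at 14 min.

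Replicates exist at 7 and 24 min, so the step from 7 to 24 min was tested in BY003 and BY012, whose arrays the 10 and 14 min comparison does not use. In limma with Benjamini-Hochberg adjustment over all genes, 372 genes were higher at 24 min (6.83%) and 867 lower (15.9%), so 30.0% of the calls were higher, 41.5% with array medians subtracted (583 and 823 genes) and 50.1% with quantile normalization (601 and 599 genes). Counts over the gene lists below are to be read beside these shares of all genes and beside those of the 10 and 14 min differences above. Counts and medians over these lists include members that were not above background, whose sign or full size is not known. Of the 7 genes higher at 10 and 14 min, 5 rose in that test and ARN1 and UPS2 were not called. Of the 54 lower genes, 35 fell (29 of the 45 above background) and 19 were not called, and the 35 became 19 to 21 without any 1 of the 4 arrays at 7 and 24 min. Against the spread at 7 min, 6 of the 7 higher genes were above all 3 arrays of that time at both 10 and 14 min (15.6% of all genes), and 50 of the 54 lower genes were below all 3 (24.3% of all genes). Among these 3 arrays is the BY008 array against which the genes were picked, so lying beyond that array was fixed in advance. Only the BY003 and BY012 arrays add to these counts, and the shares of all genes carry no such picking.

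The permease genes led the higher group. AGP1, for a broad amino acid permease, read 9.33 at 7 min, 11.12 at 10 min, 13.01 at 14 min and 13.46 at 24 min in BY008, and 10.09 and 9.87 at 7 min and 13.13 and 13.58 at 24 min in BY003 and BY012. It was flat until 7 min, with 9.13 at -10 min and 9.27 at 3 min, and then 3.45-fold higher at 10 min and 12.7-fold at 14 min than at 7 min. In the other experiments AGP1 rose by 3.37 ± 0.43 in log2 from 7 to 24 min (SE, n = 2 arrays per time, adjusted p = 0.00556). TAT2, for the tryptophan permease, had started earlier: it read 8.13 at -10 min, 8.71 at 3 min, 9.38 at 7 min, 10.67 at 10 min, 11.65 at 14 min and 12.44 at 24 min. Its level at 7 min was 9.32 in BY003 and 8.96 in BY012, below both later arrays of BY008, and it rose by 3.02 ± 0.18 to 24 min (adjusted p = 0.00222).

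Targets of the SPS sensor differed in their timing. The list holds 9 measured permease genes, of which 5 were at least 2-fold higher at 14 min and 2 at least 2-fold lower, with a median difference of 0.08 at 10 min, 1.17 at 14 min and 2.59 at 24 min in BY008. The list median for the step from 7 to 24 min was smaller elsewhere, at 1.545 in BY003 and 1.135 in BY012. In BY003 and BY012, 3 of the 9 had risen from -10 to 7 min, namely TAT2, GNP1 and BAP2, and 2 had fallen. GNP1, for the glutamine permease, rose early, by 2.42 ± 0.28 there (adjusted p = 0.00188), and read 9.92 at -10 min, 11.71 at 7 min, 12.54 at 10 min and 12.88 at 14 min in BY008. Its 7 min levels in BY003 and BY012 were 12.48 and 12.83, and no further rise to 24 min was called (0.27 ± 0.28, adjusted p = 0.525). BAP2, whose product imports leucine, valine and isoleucine, rose by 0.86 ± 0.18 to 7 min (adjusted p = 0.0119) and by 3.86 ± 0.18 from 7 to 24 min (adjusted p = 0.00119) in those experiments. In BY008 it read 6.94 at -10 min and 8.13, 8.71, 9.54 and 11.85 at 7, 10, 14 and 24 min, so its largest step came after 14 min. BAP3, of the same kind, was not above background at 7 and 10 min in BY008 and was at least 2.47-fold higher at 14 min (7.53) and 8.27-fold at 24 min (9.27) than at 7 min. It rose in the test (adjusted p = 0.00119), where 1 of the 2 arrays at 7 min was above background. TAT1, for a tyrosine permease, still read 8.66 at 14 min against 8.56 at 7 min and reached 11.15 at 24 min. The dicarboxylic amino acid permease gene DIP5 and the peptide transporter gene PTR2 were the 2 lower members, at -2.43 and -1.65 at 14 min. From 7 to 24 min 5 of the 9 rose in the test and 4 were not called. BAP3, TAT1 and PTR2 were picked for the text after their values were seen.

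NRG1, for a repressor of glucose-repressed genes, had dipped before it climbed. It read 10.66 at -10 min, 9.21 at 3 min, 8.15 at 7 min, 9.36 at 10 min, 10.67 at 14 min and 11.89 at 24 min in BY008, so 7 min was its lowest array and 14 min was back at the steady-state level. The other experiments held the same low point, with 8.58 and 9.13 at 7 min against 11.63 and 12.30 at -10 min in BY003 and BY012. There NRG1 fell by 3.11 ± 0.29 from -10 to 7 min (adjusted p = 0.00113) and rose by 3.47 ± 0.29 from 7 to 24 min (adjusted p = 0.00249).

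PRM5, for a membrane protein induced by cell wall integrity signalling, read 10.51, 11.61, 12.54 and 13.20 at 7, 10, 14 and 24 min, against 10.03 and 8.35 at 7 min in BY003 and BY012. It rose by 3.82 ± 0.52 to 24 min (adjusted p = 0.00637). SLT2, for the MAP kinase of that pathway, passed the 2-fold line at 14 min alone, at 11.09, 11.91, 12.88 and 13.69, and rose by 3.10 ± 0.28 (adjusted p = 0.00249). In the cell wall list of 35 genes, 21 were higher and 10 lower at both times (41.4% and 44.3% of all genes). At 14 min 1 of the 35 was at least 2-fold higher (1.49% of all genes), and 8 rose in the test (6.83% of all genes). REA1, for an ATPase that matures the large ribosomal subunit, read 11.88, 12.89, 13.36 and 13.84 and lay above the 7 min arrays of BY003 (12.58) and BY012 (12.41) at both times. Its rise to 24 min in those experiments was called (1.43 ± 0.39, adjusted p = 0.0456), and the call was lost with quantile normalization.

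Iron uptake genes were higher together. ARN1, for a siderophore transporter, read 9.55 at 7 min, 10.66 at 10 min, 11.58 at 14 min and 11.95 at 24 min, while BY003 and BY012 read 9.86 and 9.93 at 7 min and 11.94 and 11.03 at 24 min. Its step to 24 min there was not called (1.59 ± 0.46, adjusted p = 0.0552), and once experiment was a block it was (adjusted p = 0.0264, range over all alternatives 0.00551 to 0.211). FRE1, for a ferric reductase, read 9.11, 10.06 and 10.91 at 7, 10 and 14 min and rose by 2.14 ± 0.43 (adjusted p = 0.0200). Of the 26 genes of the iron regulon, 21 were higher and 3 lower at both times, and 8 were at least 2-fold higher at 14 min, among them the ferroxidase gene FET3 at 1.49 and the siderophore transporter gene SIT1 at 1.54. Over all genes 41.4% were higher and 44.3% lower at both times, and 1.49% were at least 2-fold higher at 14 min. The list had a median of 0.40 at 10 min, 0.73 at 14 min and 1.05 at 24 min in BY008, but of 0.77 and 0.30 for the step from 7 to 24 min in BY003 and BY012, where 4 of the 26 members rose (6.83% of all genes). The 7 min arrays of BY003 and BY012 already lay above that of BY008 by a median of 0.35 and 0.29 over this list, and the part of this in the result was not tested. CCC1, for the vacuolar iron importer, went the other way, from 11.99 to 11.16 at 14 min. FET3, SIT1, SLT2 and CCC1 were picked after their values were seen.

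UPS2, for a mitochondrial lipid regulator, was the exception among the 7. It read 11.22 at 7 min, 12.25 at 10 min and 12.63 at 14 min in BY008, but its 7 min levels in BY003 and BY012 were 12.44 and 13.04, so the later arrays lay within the range at 7 min. It then came back to 12.06 at 24 min and was not called in the test (-0.46 ± 0.26, adjusted p = 0.253).

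**Figure D2:**
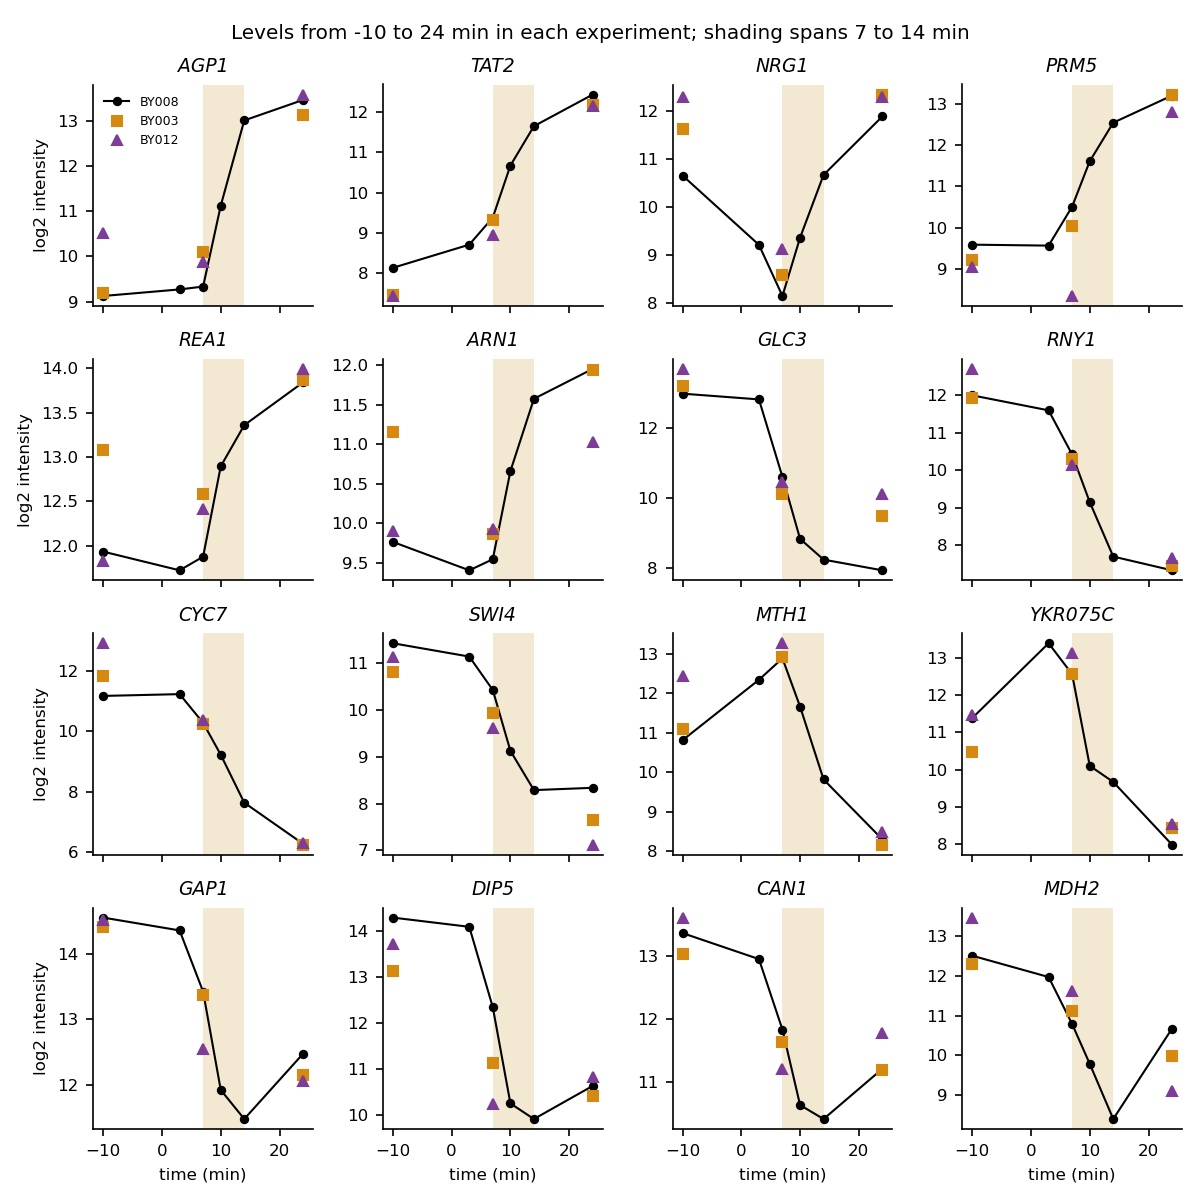
Levels of 16 genes in log2 intensity against time from -10 to 24 min, with the 6 BY008 arrays joined by a line, the BY003 and BY012 arrays as squares and triangles, and 7 to 14 min shaded. AGP1 and NRG1 climb within the shaded span, GLC3, RNY1 and SWI4 drop through it, MTH1 and YKR075C drop after an early climb, GAP1, DIP5, CAN1 and MDH2 are lowest at 14 min in BY008, and the 24 min points of CYC7 are not above background.

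Genes for using poor nitrogen were mostly lower. The nitrogen catabolite repression list holds 10 of the 54 lower genes. Of its 53 measured genes 42 were lower and 8 higher at both times, and 27 were at least 2-fold lower and 3 at least 2-fold higher at 14 min, with a median of -0.56 at 10 min and -1.0 at 14 min. In BY003 and BY012, 24 of them fell and 5 rose from 7 to 24 min. The 7 min arrays of BY003 and BY012 differed from that of BY008 by a median of -0.20 and -0.62 over this list, and the part of this in the result was not tested.

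The permeases of that list split by their course. MEP2, for the high-affinity ammonium permease, read 14.35 at 7 min, 13.38 at 10 min, 11.44 at 14 min and 11.38 at 24 min, and 14.37 and 13.93 at 7 min and 11.30 and 11.53 at 24 min in BY003 and BY012. The 3 arrays at 7 min and the 3 at 24 min did not overlap, and MEP2 fell by 2.74 ± 0.21 in the test (adjusted p = 0.00244), so its full step had been made by 14 min. PUT4, for the proline permease, read 12.74, 11.28, 10.35 and 10.04 and fell by 1.29 ± 0.28 (adjusted p = 0.0245). DAL4 and DAL5, for the allantoin and allantoate permeases, kept dropping after 14 min: DAL4 read 10.94, 9.88, 8.47 and 7.70 and fell by 3.13 ± 0.50 (adjusted p = 0.0107). DAL5 read 14.47, 13.81, 12.63 and 11.05 and fell by 2.46 ± 0.27 (adjusted p = 0.00346).

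Others turned back after 14 min. GAP1, for the general amino acid permease, read 13.42 at 7 min, 11.92 at 10 min and 11.47 at 14 min, its lowest array of the series, and 12.47 at 24 min. BY003 and BY012 read 13.37 and 12.54 at 7 min and 12.14 and 12.06 at 24 min, and the step to 24 min was not called (-0.85 ± 0.28, adjusted p = 0.0755). DIP5 read 12.35, 10.25 and 9.91 and then 10.63, and the 7 min arrays of BY003 and BY012, at 11.13 and 10.23, reach down to its 10 min level in BY008. No step to 24 min was called for DIP5 (-0.06 ± 0.36, adjusted p = 0.927). CAN1, for the arginine permease, went from 11.83 to 10.63, 10.41 and then 11.20, and its step in the other experiments was 0.06 ± 0.30 (adjusted p = 0.904). DUR3, for a urea and polyamine transporter, read 10.83, 9.81, 9.69 and 10.52, and its fall in the test (-1.88 ± 0.52, adjusted p = 0.0468) rested on -2.99 in BY003 against -0.78 in BY012 and was lost with array medians subtracted or quantile normalization.

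Enzymes and regulators of nitrogen use spread over the same range. GLN1, for glutamine synthetase, read 13.71, 12.71, 11.99 and 12.47, and the step in the other experiments was not called (-0.55 ± 0.20, adjusted p = 0.0972). GDH2, whose enzyme splits glutamate to give ammonium, read 13.32, 12.61, 11.05 and 10.46, with 12.05 and 11.36 already at 7 min in BY003 and BY012. Its step there was not called (-0.97 ± 0.33, adjusted p = 0.0801) but passed once experiment was a block (adjusted p = 0.0241, range over all alternatives 0.0239 to 0.349). PUT1, for proline oxidase, had made its whole step before 7 min, with 14.69 at -10 min, then 12.48, 12.25, 12.33 and 12.35 from 7 to 24 min, while the GATA repressor gene DAL80 went on from 11.57 to 10.68 and 10.33 and then stayed at 10.22. For DAL80 the step from 7 to 24 min was -0.52 in BY003 and -0.23 in BY012 against -1.35 in BY008, and it was not called (-0.37 ± 0.19, adjusted p = 0.209). GDH1, for the glutamate dehydrogenase that takes up ammonium, differed little, at 13.83, 13.77, 13.48 and 13.29 (-0.54 ± 0.36, adjusted p = 0.324). GAT1, for a GATA activator, read 12.28, 12.24 and 11.93. Against the list, MEP3, YGK3 and GZF3 were the 3 members at least 2-fold higher at 14 min: MEP3, for another ammonium permease, read 8.51, 8.87 and 9.85, YGK3 9.08, 9.59 and 10.21, and GZF3, for a GATA repressor, 8.15, 8.57 and 9.19. MEP3 (2.06 ± 0.26, adjusted p = 0.00556) and GZF3 (1.96 ± 0.30, adjusted p = 0.00955) rose to 24 min in the test, and all 3 were picked after their values were seen.

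Carbohydrate storage was the list furthest down. All 20 measured glycogen and trehalose genes were lower at both times, 16 of them at least 2-fold at 14 min, with a median of -0.68 at 10 min, -1.46 at 14 min and -2.24 at 24 min in BY008, and 13 fell in the test. The list median for the step from 7 to 24 min was -1.52 in BY003 and -1.86 in BY012. GLC3, for the glycogen branching enzyme, read 10.61 at 7 min, 8.84 at 10 min, 8.24 at 14 min and 7.94 at 24 min in BY008, but 10.13 and 10.45 at 7 min and 9.50 and 10.13 at 24 min in BY003 and BY012. Its low level at 24 min is thus that of BY008 alone (test -0.47 ± 0.29, adjusted p = 0.279). The other experiments have no 14 min array to set beside its low level at that time. GAC1, for the subunit that takes a phosphatase to glycogen synthase, read 8.85, 7.18 and 6.87 at 7, 10 and 14 min. It was not above background on any of the 3 arrays at 24 min and fell at least 10.2-fold in the test (adjusted p = 0.0190). TSL1, for a trehalose synthase subunit, read 11.94, 10.71, 9.32 and 9.22 and fell by 2.05 ± 0.31 (adjusted p = 0.00944), and the glycogen synthase gene GSY1 read 9.31, 8.14, 7.45 and 7.02 and fell by 1.26 ± 0.32 (adjusted p = 0.0365), a call lost with quantile normalization.

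The general stress response list looked alike, with 53 of 54 genes lower at both times, 29 at least 2-fold lower at 14 min, a median of -0.45 at 10 min and -1.20 at 14 min, and 37 that fell in the test. RNY1, for a vacuolar RNase, read 10.42 at 7 min, 9.15 at 10 min, 7.70 at 14 min and 7.33 at 24 min, with 10.30 and 10.14 at 7 min and 7.45 and 7.66 at 24 min in BY003 and BY012. The arrays of the experiments lay close together at each time, and RNY1 fell by 2.67 ± 0.28 (adjusted p = 0.00324). CYC7, for the minor cytochrome c, read 10.29, 9.22 and 7.63 at 7, 10 and 14 min. It was not above background on any of the 3 arrays at 24 min and fell at least 14.9-fold in the test (adjusted p = 0.00249). PHM7, of unknown role, read 10.50, 8.86, 8.14 and 8.13 and fell by 1.87 ± 0.40 (adjusted p = 0.0226). UBC8, for a ubiquitin-conjugating enzyme, read 11.29, 10.07, 8.40 and 7.89 and lies next to GLC3 on the chromosome, 1 of 2 neighbouring gene pairs among the 61 genes. The other pair, AGP1 and the kinase gene KCC4, went in opposite directions. HSP12, for a membrane-stabilising stress protein, kept most of its level until 14 min, at 14.64, 14.52 and 14.22, and was at 13.13 at 24 min.

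Of 28 autophagy genes, 25 were lower and 3 higher at both times and 14 were at least 2-fold lower at 14 min, with a median of -0.45 and -1.02, and 15 fell in the test. These counts include genes not above background. ATG16 was not above it at 7, 10, 14 or 24 min in BY008, so its sign cannot be read. ATG14 was above it at 7 min alone and is known only to be at least 1.83-fold lower at 14 min. ATG39, for a receptor of nuclear autophagy, read 11.12, 9.75, 8.31 and 8.08 at 7, 10, 14 and 24 min and fell by 2.72 ± 0.38 (adjusted p = 0.00721). ATG17, for a scaffold of the initiation complex, read 9.12, 8.03, 7.20 and 6.98 and fell in the test too (adjusted p = 0.00970). ATG29, for another initiation factor, read 6.27 at 7 min, just above background, and was not above it at 10, 14 or 24 min, so no size or course can be given for it. Its step in the test was not called (adjusted p = 0.243). ATG19, for a receptor of the cytoplasm-to-vacuole route, read 10.74, 9.61, 9.11 and 9.61, a return to its 10 min level, and was not called (-0.75 ± 0.23, adjusted p = 0.0614). Of the other large decreases, BDH2, related to butanediol dehydrogenase, read 10.22, 8.57, 8.20 and 8.24 after 13.39 at -10 min. Its later step in the other experiments was not called (-1.01 ± 0.31, adjusted p = 0.0636) but passed once experiment was a block (adjusted p = 0.0435, range over all alternatives 0.00589 to 0.270). RGI1, a gene linked to respiratory growth, read 11.08, 9.52, 8.03 and 7.63 and fell by 1.73 ± 0.16 (adjusted p = 0.00269). YMR206W, of unknown role, read 7.68 at 7 min and was not above background at 10, 14 or 24 min, at least 2.57-fold lower at 10 min and 2.64-fold at 14 min. It fell at least 4.25-fold in the test (adjusted p = 0.0178).

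MTH1 and YKR075C went from above to below their steady state within minutes. MTH1, for a corepressor of hexose transporter genes, read 10.81 at -10 min, 12.34 at 3 min, 12.88 at 7 min, 11.66 at 10 min, 9.82 at 14 min and 8.30 at 24 min in BY008. YKR075C, of unknown role, read 11.38, 13.38, 12.56, 10.10, 9.67 and 7.99 at the same times. BY003 and BY012 held the ends of this course. MTH1 rose by 1.32 ± 0.43 from -10 to 7 min (adjusted p = 0.0470) and fell by 4.75 ± 0.43 from 7 to 24 min (adjusted p = 0.00249), and YKR075C rose by 1.87 ± 0.36 (adjusted p = 0.00908) and fell by 4.35 ± 0.36 (adjusted p = 0.00249). They were the 2 of the 54 lower genes that had risen before 7 min.

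MIG2, for a glucose repressor, read 12.23, 10.94, 9.63 and 9.63 at 7, 10, 14 and 24 min and fell by 2.55 ± 0.26 (adjusted p = 0.00323). MIG1, for the main glucose repressor, was behind it at 10 min, with 12.57, 11.90, 10.28 and 9.53, and fell by 3.44 ± 0.31 (adjusted p = 0.00249). It was picked after its values were seen. Among 12 hexose transporter and sensor genes, 9 were lower and 3 higher at both times and 4 were at least 2-fold lower at 14 min, with a median of -0.12 at 10 min, -0.52 at 14 min and -1.50 at 24 min, and 7 fell in the test. These include HXT8, HXT10 and HXT14 in the counts by sign and in the medians, although they were not above background on any array at 7, 10, 14 or 24 min. HXT1, for a low-affinity transporter, read 14.11, 13.63, 12.61 and 12.48 and had made nearly its full step by 14 min, whereas HXT3 read 14.60, 14.51, 14.31 and 12.35 and made it after 14 min. In the other experiments HXT1 fell by 1.40 ± 0.24 (adjusted p = 0.0128) and HXT3 by 2.14 ± 0.20 (adjusted p = 0.00260). Transporter genes of this family are close copies of each other, so signal shared between their probe sets cannot be told apart.

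Cell cycle genes gave mixed results. SWI4, for the DNA-binding subunit of the factor that switches on G1 cyclins, read 10.42, 9.12, 8.29 and 8.33, and BY003 and BY012 read 9.92 and 9.62 at 7 min and 7.64 and 7.12 at 24 min. It fell by 2.39 ± 0.25 (adjusted p = 0.00323). CLN2, a G1 cyclin gene, read 10.34, 9.75, 9.36 and 8.94 and fell by 0.83 ± 0.19 (adjusted p = 0.0286), a call lost with quantile normalization. Among 15 genes of G1 and Start, 6 were higher and 7 lower at both times, near the 41.4% and 44.3% of all genes. At 14 min 2 of these 15 were at least 2-fold higher and 1 at least 2-fold lower. Among 38 genes of DNA replication 5 were higher and 29 lower at both times. At 14 min 7 of these were at least 2-fold lower (6.68% of all genes) and 1 at least 2-fold higher (1.49% of all genes). In the test 9 of these 38 fell (15.9% of all genes) and 1 rose (6.83% of all genes). RNR1, for the large subunit of ribonucleotide reductase, read 12.28, 11.39, 11.13 and 11.26, and its step in the test was not called (-0.28 ± 0.43, adjusted p = 0.678).

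Regulatory genes of nitrogen use and growth lay on both sides by sign, with 18 of 44 higher and 23 lower at both times, beside the 41.4% and 44.3% of all genes. By size they leaned lower: at 14 min 9 were at least 2-fold lower and 1 higher, beside 6.68% and 1.49% of all genes. In the test 11 fell and 4 rose, beside 15.9% and 6.83% of all genes. XBP1, for a repressor made under stress, read 8.92, 7.87, 6.92 and 6.96 after 10.74 at -10 min. Its step from 7 to 24 min in the other experiments was not called (-1.14 ± 0.42, adjusted p = 0.103) but passed once experiment was a block (adjusted p = 0.0212, range over all alternatives 0.0212 to 0.392). The glycerol enzyme gene GPD1 read 12.49, 11.16, 9.79 and 9.91 and fell by 2.06 ± 0.20 (adjusted p = 0.00271). It was the 1 gene of 23 in glycolysis and fermentation that was at least 2-fold lower at 14 min.

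Up to 24 min in BY008, the direction seen at 10 and 14 min was mostly kept. A gene was counted as gone further where its level moved at least 0.5 in log2 in the same direction from 14 to 24 min, as turned back where it moved that far the other way, and as held between these. Of the 7 higher genes 3 went further, 3 held and 1 turned back, and of the 54 lower genes 11 went further, 36 held and 7 turned back. No gene of the 61 recrossed its 7 min level. The genes were picked as far from that same 7 min array, which by itself favours this. Of the 45 lower genes above background on all 4 arrays, 9 went further, 30 held and 6 turned back, namely GAP1, DIP5, CAN1, DUR3, MDH2 and YPC1. The seventh counted as turned back, ATG29, was not above background at 14 and 24 min, so its turn cannot be read. With the mean of the 3 arrays at 24 min in place of the BY008 array, 12 of the 54 turned back.

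MDH2, for the cytosolic malate dehydrogenase of gluconeogenesis, came back furthest, at 10.79, 9.79, 8.40 and then 10.68, close to its 7 min level. The other experiments did not hold this: they read 11.13 and 11.61 at 7 min and 9.99 and 9.10 at 24 min, where MDH2 fell by 1.83 ± 0.46 (adjusted p = 0.0374), a call that was lost with quantile normalization. The difference between the experiments was not tested. AIM17 and UGX2, whose roles are left out here, went on to 7.18 and 6.94 at 24 min from 8.39 and 8.14 at 14 min, and MTH1 and YKR075C also went among the furthest.

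**Figure D3:**
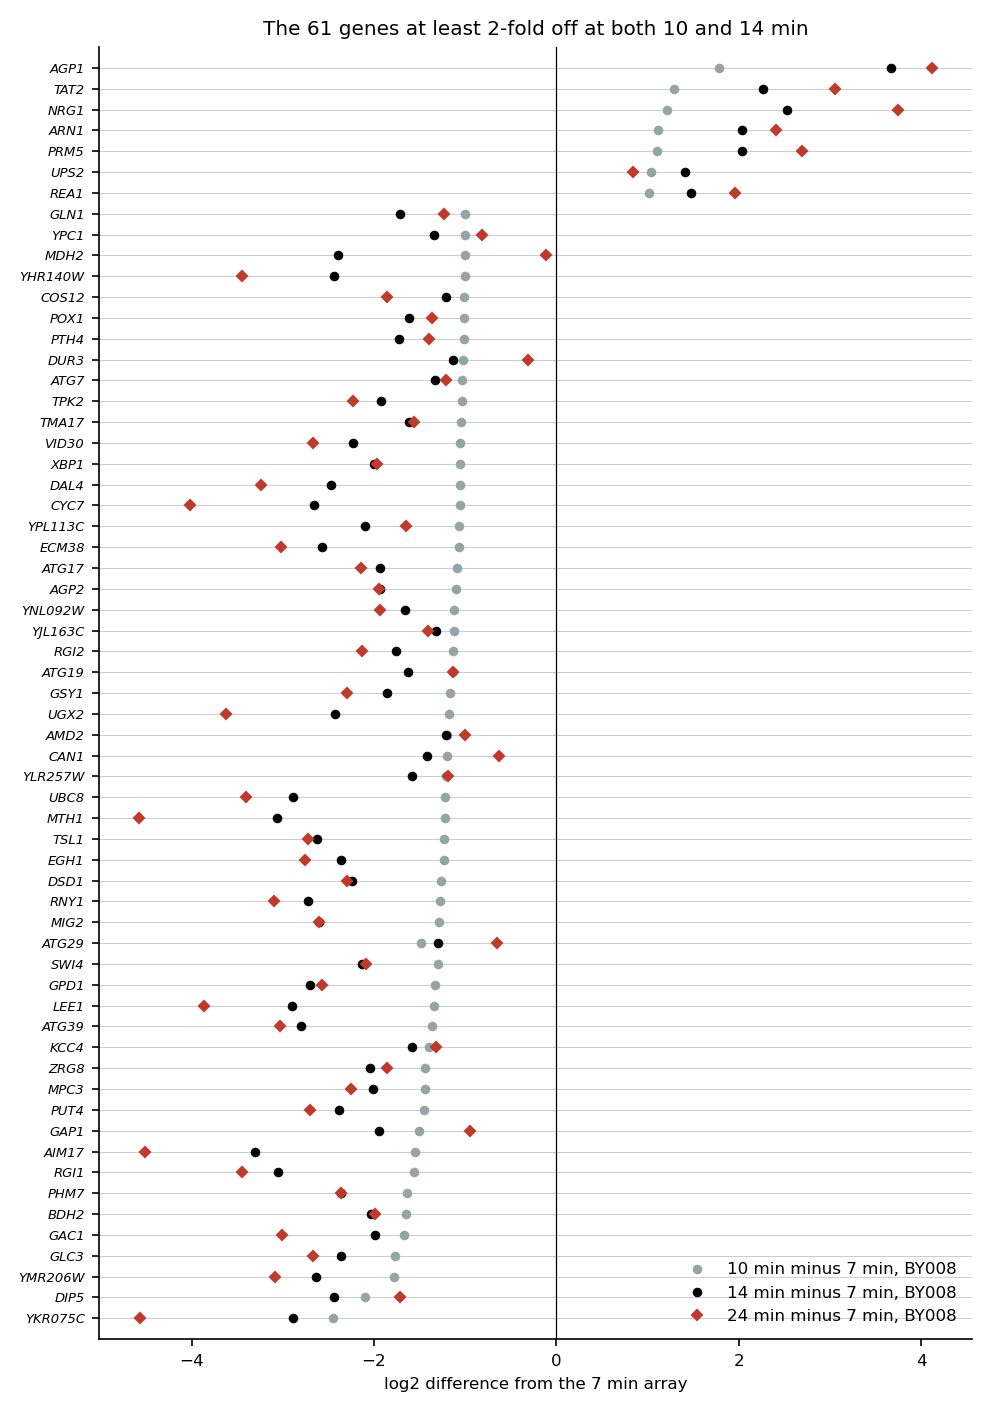
The 61 genes at least 2-fold higher or lower than 7 min at both 10 and 14 min, with the log2 difference from the 7 min array of BY008 at 10 min (grey), 14 min (black) and 24 min (red), 1 array per time. All red points stay on the side of the grey and black ones, and those of UPS2, GAP1, DIP5, CAN1, DUR3, MDH2 and YPC1 lie back toward 0, as does that of ATG29, whose 10, 14 and 24 min levels are not above background.

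The wider sets at 14 min behaved alike. Of the 81 genes at least 2-fold higher at 14 min, 78 were higher at 10 min too, 45 went further by 24 min, 33 held and 3 turned back, and 54 rose in the test on BY003 and BY012. Of the 364 at least 2-fold lower, 364 were lower at 10 min too, 140 went further, 204 held and 20 turned back, and 253 fell and 2 rose. Picking genes far from the shared 7 min array by itself raises the counts at 10 min. Over all genes 41.4% were higher and 44.3% lower at both times. Without the 7 min array of BY003 or of BY012, 34 and 32 of the 81 rose and 115 and 125 of the 364 fell, and 141 fell without the 24 min array of BY012. Over the 54 genes lower at both times, the median difference between 24 and 7 min was -2.18 in BY008, -1.74 in BY003 and -1.57 in BY012, and 49 were lower in both of the other experiments (47.4% of all genes). Over the 7 higher genes it was 2.69, 2.86 and 3.17, and 6 were higher in both (39.5% of all genes).

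**Figure D4:**
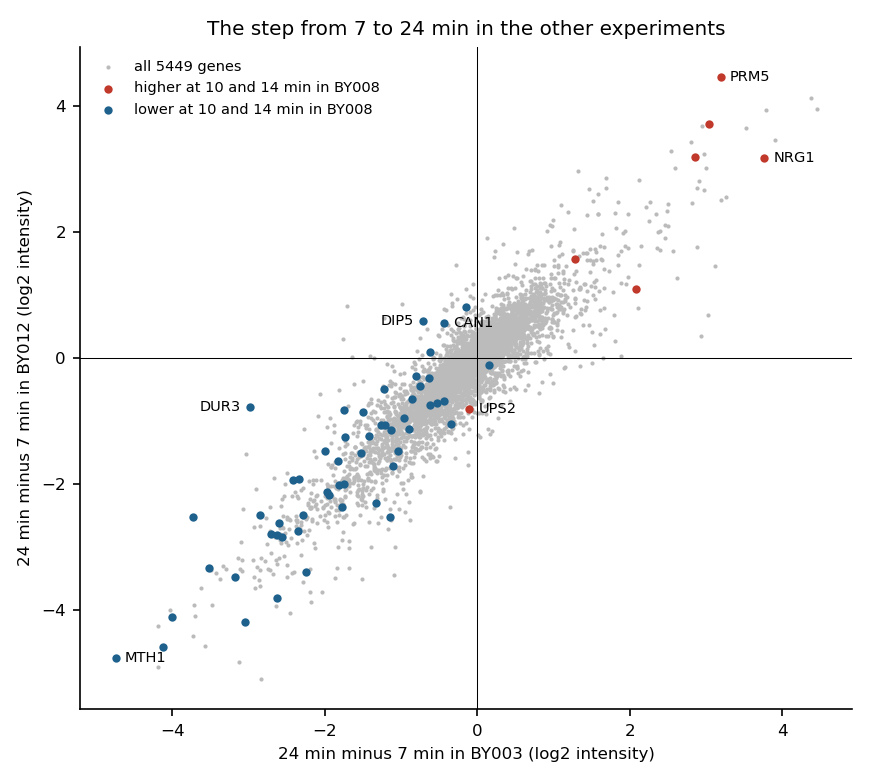
The log2 difference between 24 and 7 min in BY003 (x axis) and BY012 (y axis), 1 array per time and experiment, for 5449 genes, with the genes higher (red) or lower (blue) at both 10 and 14 min in BY008. Of the 7 red genes 6 lie above 0 in both, UPS2 does not, and 49 of the 54 blue genes lie below 0 in both.

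Genes were also sorted by what they had done before 7 min, again in BY003 and BY012 so that the 7 min array of BY008 was not shared. From -10 to 7 min 822 genes rose (15.1%) and 1589 fell (29.2%), so 34.1% of the calls were rises, 48.5% with array medians subtracted (1051 and 1114 genes) and 46.4% with quantile normalization (1018 and 1177 genes). Of the 822 that had risen, 671 (81.6%, beside 41.4% of all genes) were above the 7 min array at both 10 and 14 min in BY008. Another 54 (6.57%, beside 44.3% of all genes) were below it, and the median was 0.22 and 0.26. The ribosome biogenesis list gave 153 of these rises. Over that list the 7 min arrays of BY003 and BY012 lay above that of BY008 by a median of 0.30 and 0.36. The part of this offset in the counts was not tested. Of the 1589 that had fallen, 1076 (67.7%) were below the 7 min array of BY008 at both times and 329 (20.7%) above it, with a median of -0.22 and -0.28. At 14 min 245 of them (15.4%, beside 6.68% of all genes) were at least 2-fold lower. Of the 3038 not called, 112 (3.69%) were at least 2-fold lower at 14 min and 47 (1.55%) at least 2-fold higher. Among the 54 lower genes 43 had fallen before 7 min, 2 had risen and 9 were not called, and among the 7 higher genes TAT2 and UPS2 had risen, NRG1 had fallen and 4 were not called.

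Genes for making ribosomes, which had made their large step by 7 min, added little. Of 155 ribosome biogenesis genes 144 were higher at both times, but 1 of them, REA1, reached 2-fold, and the list median was 0.30 at 10 min and 0.32 at 14 min. In the other experiments 153 of them rose from -10 to 7 min and 4 rose from 7 to 24 min. The 7 min arrays of BY003 and BY012 lay above that of BY008 by a median of 0.30 and 0.36 over this list, as much as the steps at 10 and 14 min. DBP2, for an RNA helicase, read 9.21 at -10 min, 12.04 at 3 min, 13.41 at 7 min, 13.72 at 10 min and 13.70 at 14 min, and NSR1, for nucleolin, 9.44, 13.27, 14.04, 14.11 and 14.02. Cytosolic ribosomal protein genes were higher in 111 of 128 at both times with a median of 0.07 and 0.17, and RPL22B, for a protein of the large subunit, read 13.10, 13.11 and 13.20.

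Mitochondrial ribosomal protein genes took another course. Of 70, 58 were higher at both times, with a median of 0.19 at 10 min, 0.46 at 14 min and 0.43 at 24 min, after a median of -0.42 from -10 to 7 min in BY008. In the test 28 of them had fallen from -10 to 7 min, and 14 rose and 1 fell from 7 to 24 min. The median difference of BY003 and BY012 from BY008 at 7 min was 0.08 and -0.17 over this list.

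Among amino acid synthesis genes the lysine list stood out by size, with 8 of 10 higher at both times, 4 at least 2-fold higher at 14 min, a median of 0.40 and 0.65, and 7 that rose in the test. LYS1, for saccharopine dehydrogenase, read 11.10, 11.65, 12.28 and 12.81 at 7, 10, 14 and 24 min, and 11.15 and 10.56 at 7 min and 13.69 and 13.85 at 24 min in BY003 and BY012, where it rose by 2.91 ± 0.24 (adjusted p = 0.00249). ARG80, for a regulator of arginine genes, read 8.01, 8.95, 9.43 and 9.87, but 9.10 and 9.39 at 7 min in BY003 and BY012, and rose by 0.93 ± 0.20 there (adjusted p = 0.0224). ARG1, for argininosuccinate synthetase, read 12.78, 12.44, 12.30 and 12.44 and was not called (1.02 ± 0.39, adjusted p = 0.112). Sulfur amino acid genes waited: over 31 genes the median was 0.08 at 10 min and -0.09 at 14 min, then -1.77 at 24 min in BY008, but -0.49 and -0.21 at 24 min in BY003 and BY012, where 2 fell. MET17, for the main enzyme of sulfide assimilation, read 14.63, 14.59, 14.60 and 13.94. GCN4, which encodes the transcription factor of general amino acid control, read 14.47, 14.41, 14.38 and 14.35, near the top of the scale, where the highest value on any array was 15.14.

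Proteasome genes were broadly but slightly lower. Of 38 proteasome genes 36 were lower and 1 higher at both times, with a median of -0.22, -0.58 and -0.93 at 10, 14 and 24 min, 1 at least 2-fold lower at 14 min, and 25 that fell in the test. That 1 gene, ECM29, for a proteasome-associated scaffold, read 11.26, 10.65, 9.70 and 8.76 and fell by 2.88 ± 0.37 (adjusted p = 0.00566). It was picked after its values were seen. The 7 min arrays of BY003 and BY012 read lower over this list by a median difference of -0.33 and -0.56 from BY008, and the part of this in the result was not tested.

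**Figure D5:**
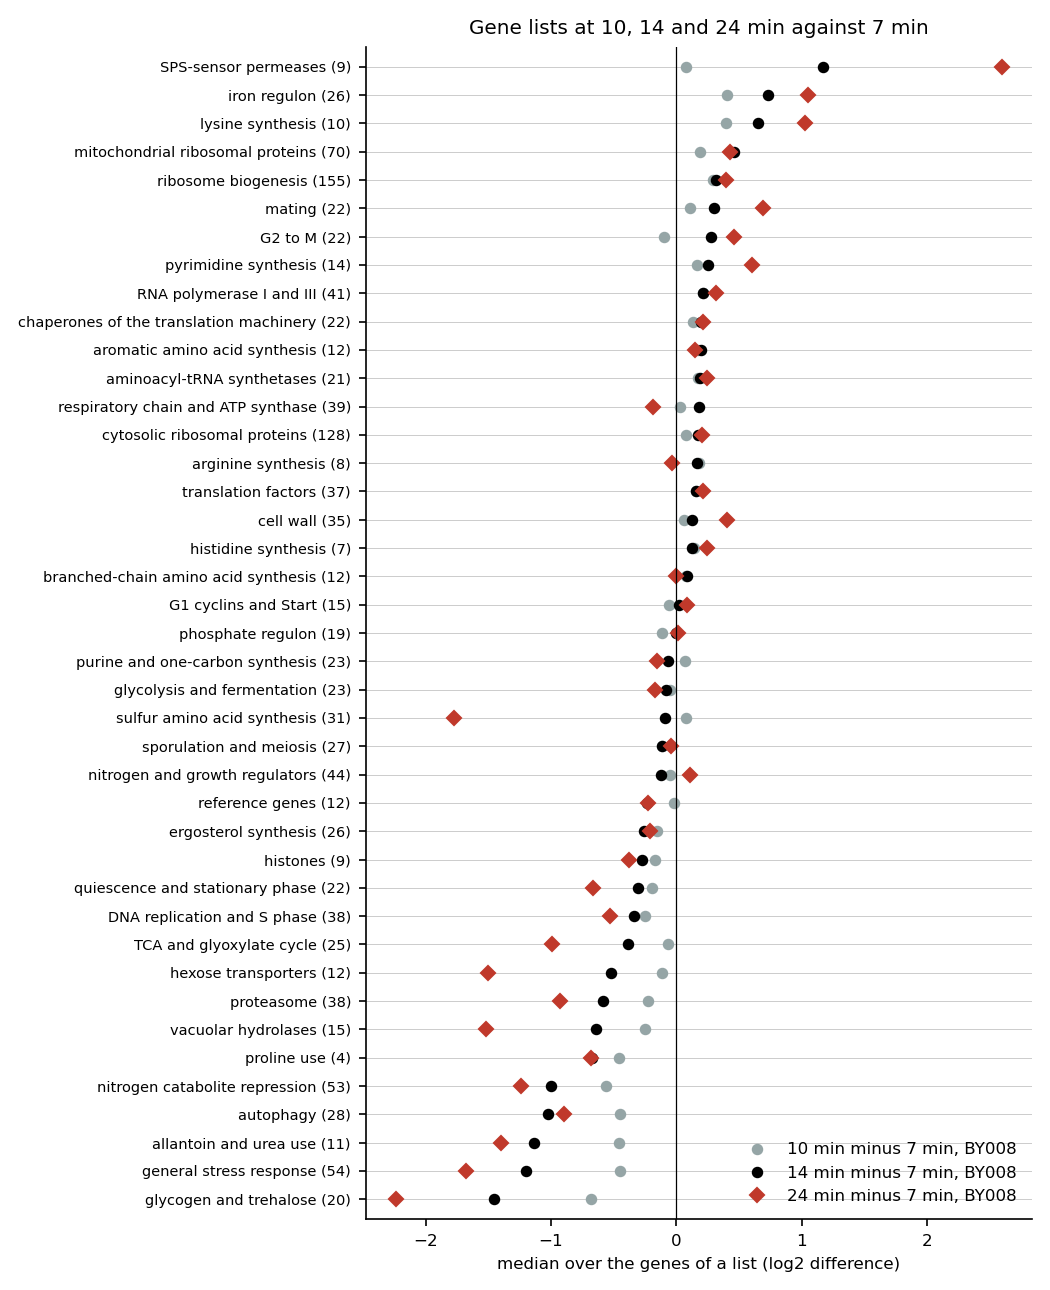
The median log2 difference from the 7 min array of BY008 over the genes of each of 41 lists, at 10 min (grey), 14 min (black) and 24 min (red), with the number of measured genes in brackets. Glycogen and trehalose genes lie furthest left at all 3 times, iron genes furthest right at 10 min and SPS-sensor permeases at 14 and 24 min, and sulfur amino acid genes leave 0 at 24 min alone.

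A small set of genes did not run 1 way from 7 to 14 min. HSP30, for a heat shock protein of the plasma membrane, read 8.03 at 7 min, 7.32 at 10 min, 9.54 at 14 min and 10.53 at 24 min, and rose by 4.20 ± 0.44 in the other experiments (adjusted p = 0.00325). CAR1, for arginase, read 10.45, 9.91, 10.77 and 12.29 and rose by 2.13 ± 0.58 (adjusted p = 0.0462). The polyamine transporter gene TPO3, at 8.28, 7.73, 8.65 and 9.25, rose by 1.39 ± 0.20 (adjusted p = 0.00762). CHA1, for serine deaminase, had its low at 10 min too, at 9.32, 8.35, 8.94 and 10.56, and its step to 24 min was not called (1.76 ± 0.63, adjusted p = 0.0950) but passed once experiment was a block (adjusted p = 0.0297, range over all alternatives 0.0221 to 0.368). ISF1 read 8.44, 7.29 and 7.90 and was back at 7.26 at 24 min. It fell by 2.46 ± 0.56 in the test (adjusted p = 0.0272), a call lost with quantile normalization. For CAR1 and HSP30, 7 min lay below -10 min as well, so 10 min was the bottom of a longer dip. In the opposite sense AAD6, related to aryl-alcohol dehydrogenases, peaked at 9.57 at 10 min between 8.99 and 8.58 and fell to 24 min in the test (-1.46 ± 0.23, adjusted p = 0.00955). The other peaks at 10 min, FRM2, ECM23, BDS1 and SSP2, were at most 0.62 above 7 min, and ECM23 was above background at 10 min alone. Each dip or peak at 10 min rests on 1 array.

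Lists for other cell states lay nearer 0 at 14 min than the iron, storage and stress lists. Among 22 mating genes 13 were higher and 5 lower at both times (41.4% and 44.3% of all genes), with a median of 0.11 and 0.30, and 8 rose to 24 min in the test (6.83% of all genes). STE2, the receptor gene of mating type a cells, read 13.56, 13.37 and 13.34, and STE3, its counterpart in alpha cells, 8.87, 8.87 and 8.53. Of 27 sporulation genes 4 were higher and 14 lower at both times, with a median of -0.11 and -0.12 that turned positive with quantile normalization, and IME1, the inducer of meiosis, read 8.34, 8.23 and 8.50. Many sporulation genes were dim, which limits these counts and medians. DIT2, HOP1, IME4, MEK1, SPO13, SPO19 and SPS2 were not above background at 7, 10 or 14 min in BY008, so their signs cannot be read. REC8, SPO20, SPR1 and SPR3 were above it at 7 min alone, so their full size is not known. Of 22 quiescence and stationary phase genes 3 were higher and 14 lower, and POX1, for acyl-CoA oxidase, read 7.04 at 7 min and was not above background at 10 and 14 min, at least 1.64-fold and 1.69-fold lower. The actin gene ACT1, often used as a reference, read 14.54, 14.46 and 14.37 at 7, 10 and 14 min.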

How the data were processed

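RNA of wild-type yeast YSBN6 was measured on 14 Affymetrix Yeast Genome 2.0 arrays. The deposited table gives 1 linear intensity per probe set and array. Per the submitters' processing notes the tools were R 2.10.0, affy and RMA. How they were combined is not given in the sources used here. Here each deposited intensity was taken to log2, with no further normalization. Of 10928 probe sets, the supplied annotation gives 5498 to S. cerevisiae, and the brightest probe set was kept for the 47 genes with several, which left 5449 genes. For 12 genes the symbol was updated.

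Differences from the 7 min array of BY008 used 1 array per time and no test. limma 3.58.1 in R 4.3.3 was fitted to the 6 arrays of BY003 and BY012 at -10, 7 and 24 min, 1 mean per time, with empirical Bayes moderation (3 residual and 3.20 prior degrees of freedom). A gene was called at a Benjamini-Hochberg adjusted p under 0.05 over all genes. Tested on simulated data for 24 against 7 min with 200 of 5449 genes changed, it found 1 of 67 changes of size 0.5 in log2, 24 of 67 of size 1 and 49 of 66 of size 2, while 4 of 78 calls hit unchanged genes. The simulated data had fewer changed genes than the real test called, and their noise was independent between arrays. The share of changes found need not hold for the real test.

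The text names, among genes above the 95th percentile of the S. pombe probe sets on at least 1 of the 3 arrays, the 10 largest rises and 10 largest falls by the smaller of both differences, up to 4 members of each of 41 lists past 2-fold at both times, the 5 genes in each direction that went furthest on or turned back most, the 5 highest and 5 lowest at 10 min alone and 28 fixed genes, and also some list members picked after their values were seen. Where all arrays of 1 side were not above that percentile, a lower bound was computed with the percentile in place of the dim level, a choice made after seeing the data. The comparison, its members, the lists and the tests were chosen with earlier results of these data known. STE2, STE3 and IME1 come from the marker lists.

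The experiment codes in the labels pair the arrays of 1 experiment. After time means were removed, the 7 and 24 min arrays of 1 experiment correlated over genes with r = 0.21 (BY003), 0.35 (BY008) and 0.44 (BY012). Alternatives were other scalings, sizes, steps and thresholds, the experiment as a block, all 14 arrays, and leaving out arrays. Figures used matplotlib 3.10.9 in Python 3.11.15.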

Additional observations from a re-analysis of the deposited data

Results flagged for a closer look

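Among 3470 probe sets for which the supplied annotation lists no gene, 7 were at least 2-fold lower than 7 min at both 10 and 14 min and 0 were higher. They were looked at because no comparison above uses them. Of the 7, 4 were above the 95th percentile of the S. pombe probe sets. Of the 1747 S. pombe probe sets, which serve as a background here, 0 were at least 2-fold lower and 0 higher at both times.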

How the results depend on the processing

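The alternatives were followed gene by gene for the 74 genes named by rule, and not for list members picked after their values were seen. For these 74, no called step from 7 to 24 min and no 14 min difference of at least 2-fold changed sign in any alternative tried. Among steps that were not called, the sign turned in at least 1 alternative for 5 genes (CAN1, DIP5, RNR1, BDS1 and FRM2), and among smaller 14 min differences for 8. The count of genes at least 2-fold higher and lower at both 10 and 14 min, 7 and 54, was 112 and 388 at a size of 0.5, 1 and 10 at 1.5, and 17 and 123 against the mean of the 3 arrays at 7 min, and quantile normalization left 35 lower. At 10 min alone, 25 were higher and 129 lower against that mean, and 36 lower with quantile normalization. Of the higher genes, 5 went further with array medians subtracted and 7 with quantile normalization (0 back), 29 further, 75 held and 8 back at a size of 0.5, 0 further, 1 held and 0 back at 1.5, 6 further and 0 held at a step of 0.25, and 0 back with the mean at 24 min. Of the lower genes, 7 went further with quantile normalization, 90 further, 269 held and 29 back at a size of 0.5, 3 further, 5 held and 2 back at 1.5, 23 further, 17 held and 14 back at a step of 0.25, 4 back with either scaling and 12 back with the mean at 24 min. For 2-fold at 14 min, a choice made after seeing the data, a step of 0.25 gave 15 higher held and 6 back, and 112 lower held and 47 back, and the mean at 24 min gave 33 lower back.

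In the test of 24 against 7 min, 372 rises became 583 with array medians subtracted, 601 with quantile normalization, 718 with all 14 arrays and 624 without the -10 min arrays. An adjusted p under 0.01 left 65 rises and 275 falls, 18 of the 54 lower genes, 32 of the 81 and 136 of the 364, and 492 rises and 623 falls for 7 against -10 min. Leaving out 1 array gave 48 to 624 rises and 205 to 1165 falls for 24 against 7 min, with 19 to 40 of the 54 falling, 32 to 61 of the 81 and 115 to 279 of the 364, and 426 to 1025 rises and 456 to 1954 falls for 7 against -10 min. A lone array left at a time is assumed to vary like the others, and leaving out each -10 min array was chosen after seeing the data. With experiment as a replicate block there were 421 rises and 968 falls and 37 of the 54, and apart from ARN1, BDH2, XBP1, CHA1, GDH2 and PHO84 (adjusted p = 0.0149 against 0.0540) it changed no call among the 74 genes named by rule. Of the 43 called among the 74 genes named by rule, 24 lost the call in at least 1 of the alternatives, and 15 others gained it in at least 1. With 2 arrays per time, steps near 0.5 in log2 were rarely called on simulated data, in which fewer genes changed than were called here.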
